A study of Paspalum vaginatum with 72 samples.

Results

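Of 27743 gene models in the deposited table, 6 are described here across leaves and roots of the halophytic turfgrass *Paspalum vaginatum* (seashore paspalum) under salt stress. The 6 genes are annotated as enzymes of flavonoid synthesis: flavanone 3-dioxygenase 2 (emOS124.135), flavanone 3-dioxygenase 3 (emFS6.316), a flavonoid 3'-monooxygenase (emFS27.473), the flavone synthase cytochrome P450 93G1 (emOS79.1142), a flavonol synthase/flavanone 3-hydroxylase (emOS36.460) and a dihydroflavonol 4-reductase (emOS164.147). They were chosen by gene ID with earlier results of these data known, and which values led to the choice is not recorded. Their levels are therefore given as a description, the p-values state only how large a difference was against the spread between replicates, and none is independent support for a pattern.

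RNA-seq was run on 72 libraries, 3 for each of 24 conditions. The accessions were USA17-18, which the study calls salt-tolerant, and USA17-26, which it calls salt-sensitive. Leaves and roots of each were taken at time 0 without added salt and after 8, 12, 24 and 48 h and 5 days in 400 mM NaCl, in plants grown in nutrient solution, with several plants pooled in each biological replicate. Only time 0 has libraries of non-stressed plants, so all 5 salt times of an accession and tissue share the same 3 libraries at time 0. The study's methods describe control plants collected on the fifth day, whereas the labels place them at time 0, and they describe salt raised in steps of 100 mM a day, which the labels do not mention. Below, tolerant and sensitive name the 2 accessions, and each represents 1 genotype.

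Flavonoids are phenolic compounds made from phenylalanine. Chalcone synthase and chalcone isomerase build the flavanone skeleton, flavanone 3-hydroxylase turns flavanones into dihydroflavonols, and flavonoid 3'-hydroxylase adds a hydroxyl group to the B ring. From there the pathway branches: flavone synthase II makes flavones directly from flavanones, flavonol synthase makes flavonols from dihydroflavonols, and dihydroflavonol 4-reductase leads to anthocyanins and condensed tannins. In grasses, flavones such as tricin derivatives are major flavonoids, and flavonols and anthocyanins are widely known as antioxidants and screens against ultraviolet light.

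The names are those of the best Swiss-Prot match in the deposited table, and other annotation columns did not always give the same function. For emOS124.135 the KEGG column names a dioxygenase of mugineic acid synthesis (mugineic acids are the iron chelators of grasses), and its best protein match is DOWNY MILDEW RESISTANCE 6, an oxygenase that in Arabidopsis acts on salicylic acid. For emFS27.473 the KEGG column names a synthase of volatile homoterpenes beside the flavonoid 3'-monooxygenase CYP75B3, and for emOS79.1142 it names a steroid monooxygenase. For emFS6.316 it names a flavonol synthase, the same entry as for emOS36.460, whereas the best protein match is a flavanone 3-dioxygenase 3-like protein. A Gene Ontology term with the words flavonoid biosynthetic was attached to 4 of the 6 genes and was absent from emOS36.460 and emOS164.147. Other flavonoid terms were not searched for. The products of these genes were not measured here.

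The genes lie on 5 of the 10 chromosomes, all on the plus strand, in coordinates of the deposited table, whose genome build is not named in the sources used here. emOS124.135 spans chromosome 1 from 57265026 to 57266673, emFS27.473 chromosome 2 from 44573891 to 44575711, and emFS6.316 chromosome 6 from 1740656 to 1747021. emOS36.460 spans chromosome 4 from 3332465 to 3333908, emOS79.1142 the same chromosome from 37853499 to 37856020, and emOS164.147 chromosome 10 from 3493775 to 3496651. Only emOS36.460 is the single gene of its name. The others share theirs with 1 to 7 further genes, and the handling of reads shared between such copies is not described in the sources used here, so levels of near-identical copies are uncertain.

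Values are FPKM, fragments scaled to transcript length and to the mapped total of each library, and each library gave 17555 to 20676 genes at 1 FPKM or more. Relative sequencing depth, where it could be estimated from steps between low values, lay between 0.786 and 1.29 times the median library. In 9 libraries the correlation with the other 2 of the condition was lower, by 0.03 or more, than that between those 2. They were USA17-18 leaf at 0, 8 h and 12 h (replicate 1 of each) and 5 days (replicate 3), USA17-18 root at 12 h (replicate 1), USA17-26 leaf at 0 (replicate 3), 12 h and 24 h (replicate 1 of each), and USA17-26 root at 5 days (replicate 3). Tissue labels were checked with markers: in non-stressed plants, 26 of 27 leaf markers in the tolerant and 24 in the sensitive accession were lower in roots, and 11 of 14 root markers were higher in roots in both. In the other direction went 2 root markers in the tolerant accession, and 1 root and 1 leaf marker in the sensitive accession. Over all libraries the leaf marker sum was at most 1700 FPKM in roots and at least 2700 FPKM in leaves. The root marker sum did not separate the tissues under salt, being 81.69 to 186.25 FPKM in tolerant roots and 274.12 to 309.31 FPKM in tolerant leaves at 48 h. The clock gene CCA1 stood at 0.6 to 3.29 FPKM in leaves at 0 and 8 h and at 304 to 1070 FPKM in leaves at 24 h, 48 h and 5 days. The hour of collection is not given, so salt, time in culture and hour of day cannot be told apart in any comparison with time 0.

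A gene was called where the adjusted p of the limma fit over all tested genes of a tissue was at most 0.05 and the log2 fold change on the log2(FPKM + 1) scale was at least 1.5 in size. That scale understates changes of genes near or under 1 FPKM. The median log2 fold change of all tested genes lay between -0.567 (sensitive leaves, 24 h of salt) and 0.299 (difference between accessions in that leaf response), and the changes below include these shifts. In bulk tissue, fewer cells of a type and less RNA per cell cannot be told apart.

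In roots, the members differed in direction between non-stressed and salt-treated libraries. Flavanone 3-dioxygenase 2 was called higher at every salt time in both accessions. The flavonoid 3'-monooxygenase was called lower at every salt time in both, and cytochrome P450 93G1 at every salt time in tolerant roots. The part of salt in these differences, as against time in culture or hour of day, was not tested. Of 30 tolerant root values, 19 were called, 3, 4, 5, 3 and 4 of 6 genes at 8 h, 12 h, 24 h, 48 h and 5 days, where 12.7%, 10.7%, 9.1%, 9.74% and 5.56% of all tested genes were called. Of 30 sensitive root values, 18 were called, 3, 3, 5, 3 and 4 of 6 genes, against 12.9%, 11.4%, 11.9%, 9.36% and 12.6% of all genes. Because the genes were chosen with results known, nothing is read from these shares beyond the counts.

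**Figure D1:**
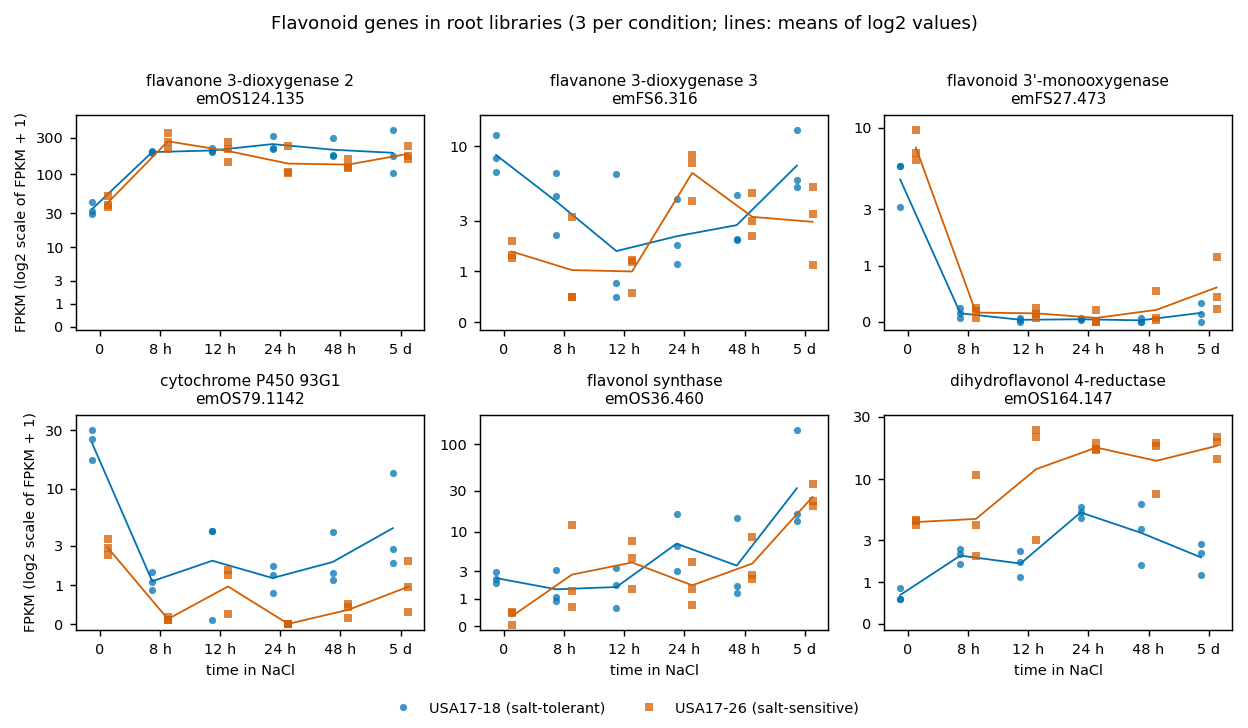
Level of each of the 6 genes in the 36 root libraries, in FPKM on a log2 scale of FPKM + 1, against time in 400 mM NaCl; points are libraries (circles USA17-18, squares USA17-26) and lines join the means of the log2 values. Flavonoid 3'-monooxygenase stood at 3.12 to 9.69 FPKM at time 0 and at or under 1.23 FPKM in every salt-treated root library, and dihydroflavonol 4-reductase was lower in tolerant than in sensitive roots at time 0.

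Flavanone 3-dioxygenase 2 (emOS124.135) was the most abundant member in roots. Tolerant roots had 29.3, 32.06 and 41.78 FPKM at time 0, 200.79, 187.49 and 197.76 FPKM at 8 h, and 378.36, 104.68 and 175.32 FPKM at 5 days. Sensitive roots had 35.81, 50.62 and 39.09 FPKM at time 0, 262.45, 347.48 and 217.57 FPKM at 8 h, and 173.16, 157.53 and 233.9 FPKM at 5 days. Every salt-treated root library lay above every non-stressed one, at 103.67 FPKM or more. The log2 fold change over time 0 was between 2.46 and 2.84 in tolerant roots (SE 0.34) and between 1.67 and 2.68 in sensitive roots (SE 0.34), all called. Among the 10 salt conditions, neighbours in order of mean level overlapped throughout, the highest mean being 276 ± 66 FPKM in sensitive roots at 8 h and the lowest 135 ± 21.8 FPKM in sensitive roots at 48 h (SD, n = 3). The call in sensitive roots at 24 h, 1.71 on the log2 scale, was lost without replicate 2 of that condition, at 1.31, and with weights that count variable libraries less, at 1.48.

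The flavonoid 3'-monooxygenase (emFS27.473) went the other way in roots. Tolerant roots had 0.11, 0.18 and 0.04 FPKM at 8 h, against 3.12, 5.87 and 5.87 FPKM at time 0. Sensitive roots had 0.14, 0.18 and 0.04 FPKM at 8 h, against 7.03, 9.69 and 6.41 FPKM at time 0. It stayed low: over all 30 salt-treated root libraries the highest value was 1.23 FPKM, in sensitive roots at 5 days, and 6 libraries were listed at 0. All 10 comparisons were called, with log2 fold changes of -2.38 to -2.51 in tolerant roots and -2.5 to -3.04 in sensitive roots (SE 0.20 each). Leaving out any single library kept all 10 calls, while adding 5 FPKM in place of 1 before taking logs brought all 10 to between -0.95 and -1.32, under the fold required. A gene of the same name on the same strand, emFS27.474, lies 3268 bp away, and had a mean of 0.0667 FPKM or less at every salt time in roots, with no call, against 0.837 ± 0.42 FPKM in tolerant and 1.35 ± 0.436 FPKM in sensitive roots at time 0.

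Cytochrome P450 93G1 (emOS79.1142), named after the rice flavone synthase II, was a root gene in these data. In tolerant roots it had 30.05, 17.19 and 25.68 FPKM at time 0, 0.82, 1.13 and 1.53 FPKM at 8 h, and 2.78, 1.97 and 13.64 FPKM at 5 days. In sensitive roots it had 2.39, 3.49 and 2.84 FPKM at time 0, 0.08, 0.14 and 0.07 FPKM at 8 h, and 2.07, 0.93 and 0.24 FPKM at 5 days. All 15 salt-treated tolerant root libraries lay under all 3 non-stressed ones, and so did all 15 sensitive ones under theirs. The fall was called at all 5 times in tolerant roots, with log2 fold changes of -3.53, -3, -3.45, -3.04 and -2.17 (SE 0.50) from 8 h to 5 days. In sensitive roots it was called at 8 h (-1.82), 24 h (-1.95) and 48 h (-1.59), and at 12 h and 5 days the values were -0.99 and -1 (adjusted p = 0.118 and 0.115). The 48 h call in sensitive roots was lost without replicate 2 of time 0 or replicate 1 of 48 h, at -1.48 in both cases, and all 3 sensitive calls were lost with 5 FPKM added in place of 1 (-0.63, -0.66 and -0.58).

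Both further genes with this name were called higher at some time in roots, which the member was not. emOS146.9, also annotated as cytochrome P450 93G1, was higher in sensitive roots at 12 h (log2 fold change 1.71) and 5 days (1.96), with 48.3 ± 14.5 FPKM at 12 h and 57.2 ± 14.4 FPKM at 5 days, against 14 ± 4.29 FPKM at time 0. emOS79.1106 was higher in tolerant roots at 8 h, at 3.3 ± 1.4 FPKM, against 0.09 ± 0.052 FPKM at time 0, a log2 fold change of 1.93.

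The flavonol synthase (emOS36.460) was low in non-stressed roots and higher at the end of the treatment. Tolerant roots had 16.38, 13.47 and 143.18 FPKM at 5 days, against 2.33, 2.93 and 1.95 FPKM at time 0, with a log2 fold change of 3.29 (SE 0.80). Sensitive roots had 36.23, 22.95 and 20.03 FPKM at 5 days, against 0.41, 0.43 and 0.04 FPKM at time 0, with a log2 fold change of 4.38 (SE 0.80). In both accessions all 3 libraries at 5 days lay above all 3 at time 0, and both calls remained without any single library. The call in sensitive roots at 12 h (1.97, adjusted p = 0.0495) was lost without 5 of its 6 libraries in turn (1.58 to 2.05, adjusted p between 0.0829 and 0.173; all but replicate 2 of 12 h), without the filter on low values (adjusted p = 0.063) and with the replicate block (adjusted p = 0.0548).

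Since this gene was much higher in leaves, leaf markers were read in the same root libraries. The summed FPKM of the 27 leaf markers was 50.2, 47.5 and 282 in tolerant roots at 5 days (replicates 1 to 3) and 1700, 377 and 115 in sensitive roots at 5 days, against 21 to 31.7 in tolerant and 43.4 to 64.9 in sensitive roots at time 0. The tolerant library with 143.18 FPKM of flavonol synthase was thus also the one with the highest leaf marker sum of its condition. Taking the same share of the leaf level of flavonol synthase as of the leaf markers gives 0.259, 0.246 and 1.46 FPKM in the tolerant and 25.4, 5.62 and 1.71 FPKM in the sensitive root libraries at 5 days. The same calculation gives 0.3, 0.448 and 0.418 FPKM in sensitive roots at time 0, where 0.41, 0.43 and 0.04 FPKM were measured. In tolerant roots at time 0 it gives 0.0614, 0.0926 and 0.086 FPKM, where 2.33, 2.93 and 1.95 FPKM were measured. The part of leaf RNA in the values at 5 days was not tested.

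**Figure D2:**
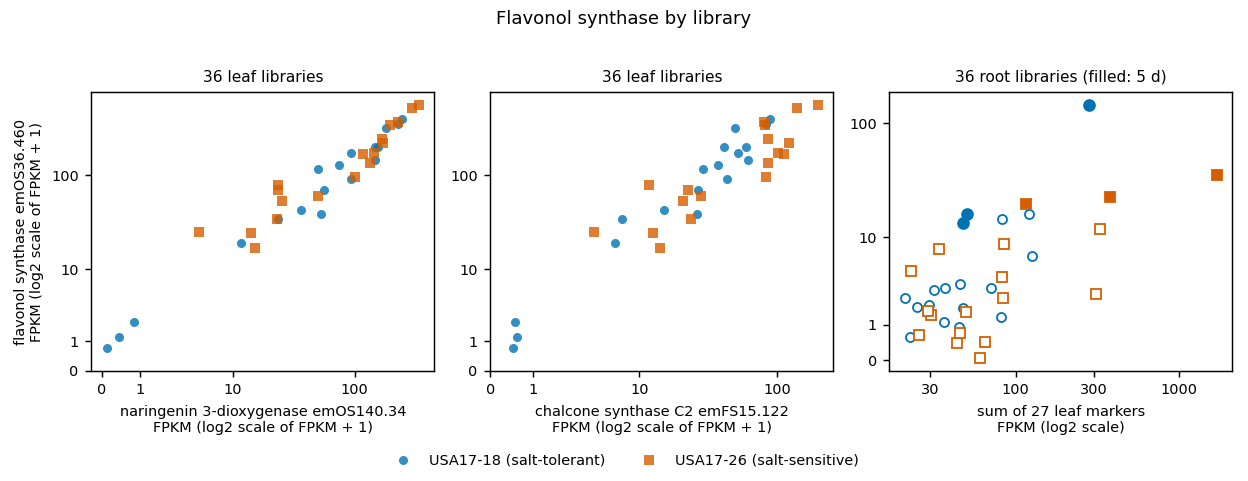
Flavonol synthase (emOS36.460, vertical axis, FPKM on a log2 scale of FPKM + 1) by library, against the naringenin 3-dioxygenase emOS140.34 in 36 leaf libraries (left), against chalcone synthase C2 emFS15.122 in the same libraries (middle) and against the summed FPKM of 27 leaf markers in 36 root libraries (right; filled points are 5 days of salt). In leaves the 3 genes were lowest in the same 3 libraries of USA17-18, and in roots the libraries at 5 days hold the highest value, 143.18 FPKM.

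Dihydroflavonol 4-reductase (emOS164.147) rose in roots at 24 h in both accessions. Tolerant roots had 5.41, 4.74 and 5.92 FPKM at 24 h, against 0.82, 0.52 and 0.52 FPKM at time 0 (log2 fold change 1.97, SE 0.48, adjusted p = 0.00228). Sensitive roots had 17.16, 16.76 and 18.93 FPKM at 24 h, against 4.48, 4.64 and 4.11 FPKM at time 0 (log2 fold change 1.78, SE 0.48, adjusted p = 0.00388). Neither pair of groups overlapped. Sensitive roots were also higher at 5 days, with 14.33, 21.19 and 19.48 FPKM and a log2 fold change of 1.82, whereas tolerant roots had 1.25, 2.22 and 2.77 FPKM there, with a log2 fold change of 0.9 (adjusted p = 0.191). The 3 calls remained without any single library, and with 5 FPKM added in place of 1 they were lost, at 0.88 (tolerant, 24 h), 1.26 (sensitive, 24 h) and 1.3 (sensitive, 5 days).

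Flavanone 3-dioxygenase 3 (emFS6.316) moved in opposite directions in the roots of the accessions at 24 h. In tolerant roots it fell to 1.2, 4.33 and 1.87 FPKM at 24 h, against 11.8, 6.74 and 8.34 FPKM at time 0 (log2 fold change -1.59, SE 0.52, adjusted p = 0.0197). In sensitive roots it rose to 8.72, 4.25 and 7.79 FPKM at 24 h, against 1.39, 2.02 and 1.5 FPKM at time 0 (log2 fold change 1.55, SE 0.52, adjusted p = 0.0186). The groups did not overlap in either accession. Each of these calls was lost without any 1 of 3 libraries, with values of -1.51 to -1.32 in tolerant roots (without time 0 replicate 1 or 24 h replicate 1 or 3) and of 1.37 to 1.48 in sensitive roots (without the same 3 replicates). Tolerant roots were also lower at 12 h, at 6.57, 0.71 and 0.42 FPKM (log2 fold change -1.88, and -1.44 without replicate 3). With 5 FPKM added in place of 1 all 3 calls were lost, at -0.91 and 0.83 (24 h, tolerant and sensitive) and -0.96 (12 h). By 5 days tolerant roots were back at 5.96, 5.31 and 12.71 FPKM, which overlapped time 0.

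In leaves, flavanone 3-dioxygenase 2, flavanone 3-dioxygenase 3 and dihydroflavonol 4-reductase rose early, with their highest means at 12 h in both accessions, and flavonol synthase fell at 8 and 12 h in tolerant leaves. Cytochrome P450 93G1 reached at most 0.32 FPKM in any leaf library, was listed at 0 in 16 of 36, and was not tested in leaves. Of 25 tested tolerant leaf values 13 were called, 4, 4, 2, 2 and 1 of 5 genes from 8 h to 5 days, where 11.9%, 13.9%, 13.7%, 10.8% and 9.33% of all tested genes were called. Of 25 sensitive leaf values 8 were called by limma, 0, 3, 2, 2 and 1 of 5 genes, against 1.65%, 8.94%, 22.7%, 8.55% and 7.11% of all genes, and at 8 h 3 of 5 had an unadjusted p under 0.05. In the same leaves the summed leaf markers stood at 2702 to 5348 FPKM in tolerant libraries at 8 and 12 h, against 54623 to 72132 FPKM at time 0. In sensitive libraries they stood at 15159 to 17548 FPKM at 8 h and 2842 to 3895 FPKM at 12 h, against 18810 to 48671 FPKM at time 0. The part of these markers in the leaf results was not tested.

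**Figure D3:**
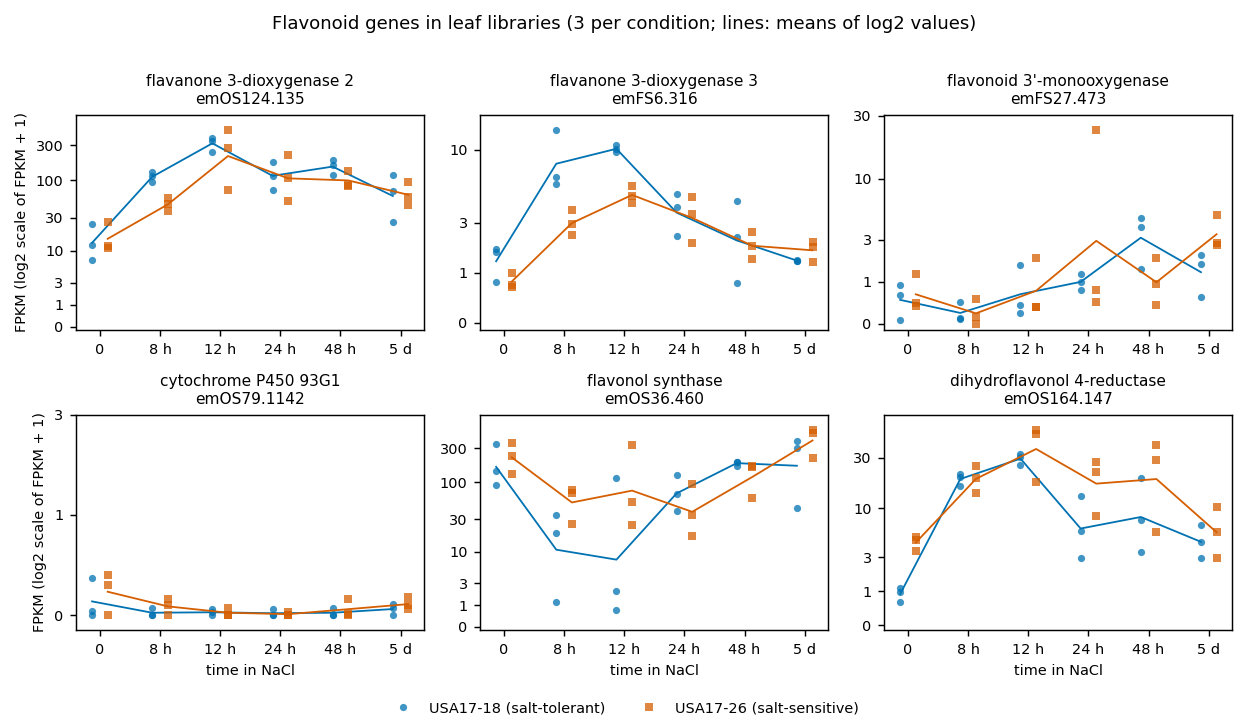
Level of each of the 6 genes in the 36 leaf libraries, in FPKM on a log2 scale of FPKM + 1, against time in 400 mM NaCl; points are libraries (circles USA17-18, squares USA17-26) and lines join the means of the log2 values. Flavanone 3-dioxygenase 2 and dihydroflavonol 4-reductase had their highest means at 12 h in both accessions, and cytochrome P450 93G1 did not exceed 0.32 FPKM.

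Flavanone 3-dioxygenase 2 (emOS124.135) had the largest log2 fold change of the members in leaves on the log2(FPKM + 1) scale, while the ratio of mean FPKM at 12 h over time 0 in tolerant leaves was 22.3 for it and 32.5 for dihydroflavonol 4-reductase. Tolerant leaves had 24.47, 12.22 and 7.25 FPKM at time 0, 92.91, 130.82 and 113.36 FPKM at 8 h, 385.2, 247.07 and 348.28 FPKM at 12 h, and 116.69, 71.35 and 26.19 FPKM at 5 days. Sensitive leaves had 10.96, 25.75 and 11.7 FPKM at time 0, 46.77, 56.96 and 36.79 FPKM at 8 h, 74.14, 274.88 and 484.54 FPKM at 12 h, and 94.36, 45.11 and 57.57 FPKM at 5 days. No salt-treated library of either accession fell below the highest non-stressed library of that accession. The log2 fold change at 12 h was 4.52 (SE 0.57, adjusted p = 6.45e-07) in tolerant and 3.76 (SE 0.57, adjusted p = 1.62e-05) in sensitive leaves. All 10 comparisons but sensitive leaves at 8 h (1.56, adjusted p = 0.126) were called. The calls at 5 days, 2.13 in tolerant and 2 in sensitive leaves, were each lost without either of 2 libraries, replicate 3 of time 0 or replicate 1 of 5 days in tolerant leaves (1.74 and 1.66) and replicate 1 of time 0 or of 5 days in sensitive leaves (1.79 and 1.7), and the sensitive one also with library weights (1.36).

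Dihydroflavonol 4-reductase (emOS164.147) had 1.14, 0.97 and 0.61 FPKM in tolerant leaves at time 0, 19.89, 16.18 and 21.22 FPKM at 8 h, 32.36, 25.85 and 30.11 FPKM at 12 h, and 4.51, 6.72 and 2.93 FPKM at 5 days. In sensitive leaves it had 4.76, 5.12 and 3.54 FPKM at time 0, 19.42, 24.99 and 14.11 FPKM at 8 h, 17.64, 48.85 and 53.26 FPKM at 12 h, and 5.78, 10.32 and 2.92 FPKM at 5 days. The tolerant log2 fold changes were 3.4, 4, 1.93 and 2.28 at 8, 12, 24 and 48 h, all called (SE 0.58), and 1.54 at 5 days (adjusted p = 0.0501). The sensitive values were called at 12 h (2.77), 24 h (1.74) and 48 h (1.88), and at 8 h the value was 1.88 with an adjusted p of 0.0631. Tolerant leaves at 24 h lost the call without replicate 3 of 24 h (1.45), and sensitive leaves lost it at 24 h without replicate 3 of 24 h (1.43) and at 48 h without replicate 2 (1.37) or 3 (1.6) of 48 h. With 5 FPKM added in place of 1, the calls at 24 h and 48 h were lost in both accessions, at 0.97 and 1.21 in tolerant and 1.26 and 1.41 in sensitive leaves. The other gene of this name, emFS18.525, rose later: it had 12.7 ± 0.883 FPKM in sensitive leaves at 5 days, against 0.403 ± 0.169 FPKM at time 0 (log2 fold change 3.29, SE 0.75, adjusted p = 0.00176).

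Flavanone 3-dioxygenase 3 (emFS6.316) had 13.42, 5.8 and 6.52 FPKM at 8 h and 10.06, 9.63 and 10.68 FPKM at 12 h in tolerant leaves, against 1.65, 0.75 and 1.76 FPKM at time 0. Sensitive leaves had 4.21, 4.8 and 5.67 FPKM at 12 h, against 1, 0.63 and 0.69 FPKM at time 0. The rise was called at 8 h (1.95, SE 0.32) and 12 h (2.25, SE 0.32) in tolerant and at 12 h (1.73, SE 0.32) in sensitive leaves. Adding 5 FPKM before taking logs brought these to 1.05, 1.25 and 0.77, under the fold required. At 5 days the means were 1.36 ± 0.0173 FPKM in tolerant and 1.74 ± 0.377 FPKM in sensitive leaves (SD, n = 3). The neighbouring gene of the same name, emFS6.315, 6458 bp away, averaged 1.7 FPKM or less in every leaf condition and was called in no comparison.

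Flavonol synthase (emOS36.460) was the only member that fell in leaves, and its replicates spread widely. Tolerant leaves had 339.98, 92.23 and 143.35 FPKM at time 0, 1.23, 34.91 and 19.4 FPKM at 8 h, 115.25, 0.71 and 2.17 FPKM at 12 h, and 303.6, 377.93 and 43.19 FPKM at 5 days. Sensitive leaves had 356.61, 237.67 and 132.65 FPKM at time 0, 78.94, 25.36 and 70.8 FPKM at 8 h, 331.28, 24.84 and 53.79 FPKM at 12 h, and 216.85, 532.17 and 495.27 FPKM at 5 days. At 8 h no salt-treated library reached the lowest non-stressed one of its accession, whereas at 12 h replicate 1 of each accession lay within the range of time 0. The tolerant log2 fold changes were -3.82 at 8 h (SE 1.17, adjusted p = 0.0117) and -4.28 at 12 h (SE 1.17, adjusted p = 0.00439). In sensitive leaves the values were -2.08 at 8 h, -1.53 at 12 h and -2.51 at 24 h (adjusted p = 0.359, 0.362 and 0.0654). The tolerant call at 8 h was lost without replicate 1 of time 0 (-3.3) or of 8 h (-2.62), and that at 12 h without replicate 2 of 12 h (-3.11). Without the 9 libraries that stand apart, the sensitive values were called at 8 h (-2.45), 12 h (-2.96) and 24 h (-3.53).

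At 12 h, 2 other genes of the pathway had the same order of leaf libraries as flavonol synthase. In tolerant leaves, where flavonol synthase had 115.25, 0.71 and 2.17 FPKM in replicates 1 to 3, the naringenin 3-dioxygenase emOS140.34, another flavanone 3-hydroxylase, had 51.21, 0.1 and 0.79 FPKM, and chalcone synthase C2 (emFS15.122) had 29.51, 0.44 and 0.49 FPKM. At 12 h in sensitive leaves flavonol synthase had 331.28, 24.84 and 53.79 FPKM, emOS140.34 had 190.25, 14.22 and 26 FPKM, and emFS15.122 had 81.9, 12.77 and 21.05 FPKM. In both accessions replicate 1 was the highest for all 3 genes. At other times the orders could differ: at time 0 in sensitive leaves flavonol synthase had 356.61, 237.67 and 132.65 FPKM and emFS15.122 had 80.67, 85.68 and 85.89 FPKM. Over the 36 leaf libraries Pearson's r on the log2 scale was 0.973 between flavonol synthase and emOS140.34 and 0.944 between flavonol synthase and emFS15.122, as a description of libraries that share conditions and depth. Replicate 1 at 12 h is also among the libraries that stand apart in both accessions.

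The flavonoid 3'-monooxygenase (emFS27.473) was not called in leaves at any time. Its highest tolerant leaf mean was at 48 h, with 4.76, 3.99 and 1.48 FPKM, against 0.9, 0.07 and 0.61 FPKM at time 0 (log2 fold change 1.48, adjusted p = 0.0797). In sensitive leaves at 24 h replicate 1 had 23.56 FPKM and the others 0.74 and 0.43 FPKM. At 5 days sensitive leaves had 2.8, 2.7 and 5.02 FPKM, above all 3 libraries of time 0 at 0.4, 0.35 and 1.28 FPKM, with a log2 fold change of 1.43 (adjusted p = 0.111). Without the 9 libraries that stand apart, tolerant leaves at 48 h (1.66) and sensitive leaves at 5 days (1.68) were called.

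**Figure D4:**
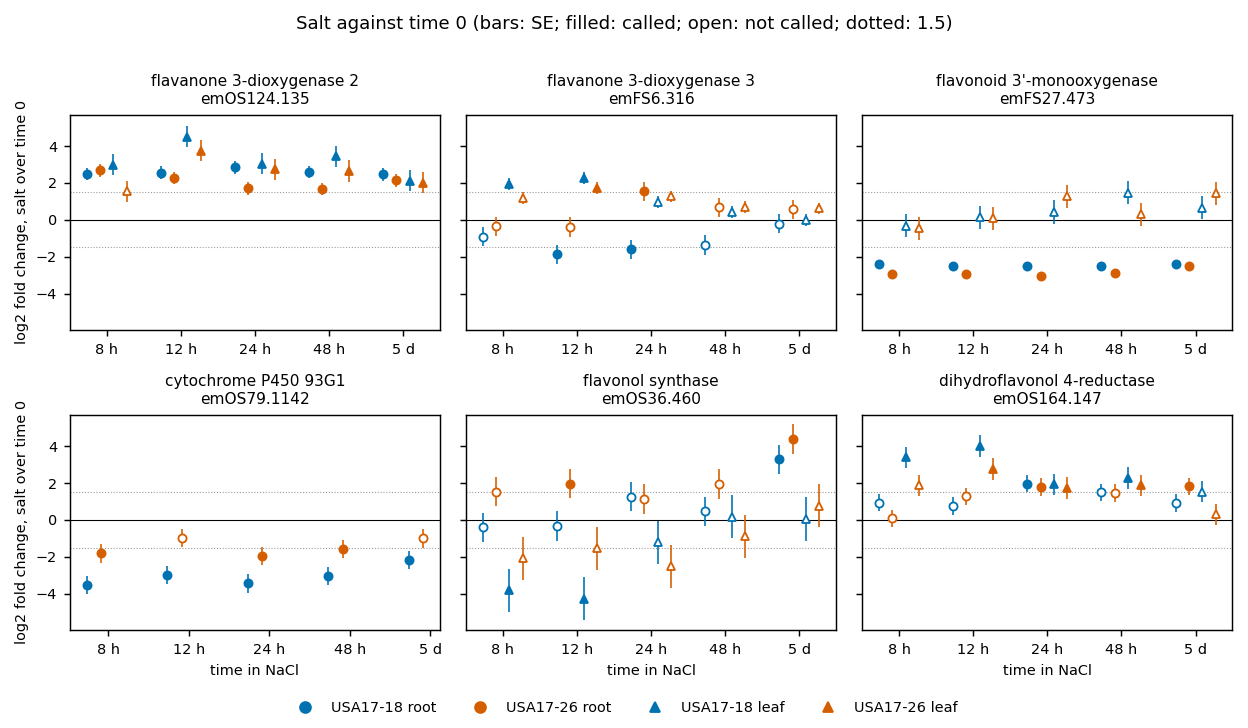
Log2 fold change of each gene at each salt time over time 0 on the log2(FPKM + 1) scale, with its SE from the limma fit, for roots (circles) and leaves (triangles) of USA17-18 (blue) and USA17-26 (orange); filled symbols were called and dotted lines mark 1.5 in either direction. The flavonoid 3'-monooxygenase was called lower at all 5 times in roots of both accessions, while flavanone 3-dioxygenase 2 was called higher in 19 of 20 comparisons.

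To see whether roots and leaves differed in their salt response, the log2 fold change in leaves was subtracted from that in roots in 1 fit of all 72 libraries, a comparison added after seeing the data. Of 30 tolerant values, 18 were called, and of 30 sensitive values, 9. Over all tested genes, 13.9%, 15%, 12.5%, 11.7% and 6.76% were called in the tolerant accession at 8 h, 12 h, 24 h, 48 h and 5 days, and 11.7%, 11.8%, 15.1%, 7.58% and 9.81% in the sensitive accession. The flavonoid 3'-monooxygenase responded more negatively in roots at all 5 times in both accessions, by -2.07 to -3.99 in the tolerant and -2.49 to -4.31 in the sensitive accession (SE 0.67). Dihydroflavonol 4-reductase responded less in roots than in leaves in the tolerant accession at 8 h (-2.46) and 12 h (-3.25, SE 0.77). Flavanone 3-dioxygenase 3 was called from 8 h to 48 h in that accession, with opposite directions in the tissues. Its means there lay under time 0 in roots and above it in leaves. At 12 h they were 2.57 FPKM in roots, against 8.96 FPKM, and 10.1 FPKM in leaves, against 1.39 FPKM. Flavonol synthase responded more positively in roots at 12 h in the tolerant (3.95, SE 1.45) and at 24 h in the sensitive accession (3.65, SE 1.45).

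Levels also differed between the tissues themselves. Root against leaf was called for 4 of 6 genes at time 0 and 4 at 5 days in the tolerant accession, where 24% and 19.4% of all tested genes were called, and for 3 and 4 genes in the sensitive accession, where 23.7% and 19.2% were called. Cytochrome P450 93G1 averaged 24.3 ± 6.54 FPKM in tolerant roots and 0.107 ± 0.159 FPKM in tolerant leaves at time 0 (log2 fold change 4.49, SE 0.42). Flavonol synthase averaged 2.4 ± 0.494 FPKM in roots and 192 ± 131 FPKM in leaves of the tolerant accession (-5.62, SE 0.79), and 0.293 ± 0.22 FPKM in roots and 242 ± 112 FPKM in leaves of the sensitive accession (-7.46, SE 0.79). The flavonoid 3'-monooxygenase changed sides: it was higher in roots at time 0, by 1.96 in the tolerant and 2.4 in the sensitive accession (SE 0.33), and lower in roots at 5 days, by -1.07 (not called) and -1.53.

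The other tissue calls were smaller. Flavanone 3-dioxygenase 3 was higher in roots of the tolerant accession, by 2.06 at time 0 and 1.84 at 5 days (SE 0.33), the second at 1.49 without root replicate 3, and at 0.57 and 0.53 was not called in the sensitive accession. Flavanone 3-dioxygenase 2 was called higher in roots at 5 days in both (1.64 and 1.55, SE 0.51), and with median-ratio scaling these were 1.29 and 1.31, under the fold required. The tolerant call was lost without leaf replicate 3 (1.06) or root replicate 1 (1.15), and the sensitive one without leaf replicate 2 (1.32) or 3 (1.49) or root replicate 3 (1.38). Dihydroflavonol 4-reductase was higher in roots than in leaves of the sensitive accession at 5 days, at 18.3 ± 3.57 FPKM in roots and 6.34 ± 3.73 FPKM in leaves (1.51, SE 0.31), and at 1.3 was not called with that scaling, nor without leaf replicate 3 (1.12) or root replicate 2 (1.4) or 3 (1.46). The tolerant difference of flavonol synthase at 5 days (-2.38) was lost without replicate 1 or 2 of leaf or root, with values of -1.97 to -1.78. The sensitive flavonoid 3'-monooxygenase call at 5 days was lost without leaf replicate 3 (-1.3) or root replicate 1 (-1.33) or 2 (-1.44).

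Between the accessions, members were called in roots and none in leaves. In roots 7 of 36 values were called by limma, 3 of 6 genes at time 0, 0 at 8 h (1 with an unadjusted p under 0.05) and 1 at each later time, where 4.28%, 2.47%, 0.955%, 6.08%, 1.82% and 2.42% of all tested genes were called from time 0 to 5 days. In leaves 0 of 30 tested values were called by limma and 6 had an unadjusted p under 0.05, against calls for 2.03%, 5.41%, 2.33%, 2.29%, 1.69% and 1.8% of all genes. Flavanone 3-dioxygenase 3 at 8 h, higher in tolerant leaves by 1.19 (SE 0.32, adjusted p = 0.00983), missed only the fold required. Dihydroflavonol 4-reductase at time 0 had 1.14, 0.97 and 0.61 FPKM in tolerant and 4.76, 5.12 and 3.54 FPKM in sensitive leaves, with no overlap (-1.52, SE 0.58, adjusted p = 0.111), and was called with 0.1 FPKM added in place of 1 (-2.21, adjusted p = 0.0388) and with library weights (-1.78, adjusted p = 3.73e-05). The widest leaf difference was that of flavonol synthase at 12 h, lower in tolerant leaves by -3.18 (SE 1.17, adjusted p = 0.095), and it was called without the 9 libraries that stand apart (-4.01).

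Dihydroflavonol 4-reductase (emOS164.147) was lower in tolerant roots at 5 of 6 times. The roots at time 0 had 0.82, 0.52 and 0.52 FPKM in the tolerant and 4.48, 4.64 and 4.11 FPKM in the sensitive accession (log2 fold change -1.74, SE 0.48, adjusted p = 0.0168). At 5 days they had 1.25, 2.22 and 2.77 FPKM in the tolerant and 14.33, 21.19 and 19.48 FPKM in the sensitive accession (-2.66, SE 0.48, adjusted p = 0.000473). The groups did not overlap at either time. The values at 12 h, 24 h and 48 h were -2.26, -1.55 and -1.72, and at 8 h, where the groups overlapped, -0.88 (adjusted p = 0.241). The call at 5 days remained without any single library. Those at 0, 12 h, 24 h and 48 h were lost without 5, 2, 5 and 4 of their 6 libraries, the log2 fold change then lying between -1.87 and -1.33 and the adjusted p between 0.0501 and 0.195. With 5 FPKM added in place of 1 the same 4 were -0.74, -1.43, -1.13 and -1.14, under the fold required, and with the replicate block those at 0, 24 h and 48 h had an adjusted p of 0.0652, 0.0739 and 0.102.

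Cytochrome P450 93G1 (emOS79.1142) and flavanone 3-dioxygenase 3 (emFS6.316) were higher in tolerant roots before salt. For cytochrome P450 93G1 the 3 tolerant libraries, at 17.19 to 30.05 FPKM, lay above the 3 sensitive ones, at 2.39 to 3.49 FPKM (log2 fold change 2.67, SE 0.50, adjusted p = 0.000442), and the call remained without any single library. Flavanone 3-dioxygenase 3 had 6.74 to 11.8 FPKM in tolerant and 1.39 to 2.02 FPKM in sensitive roots (log2 fold change 1.89, SE 0.52, adjusted p = 0.0165). This call was lost without tolerant replicate 1 (1.7) or sensitive replicate 1 (1.83) or 3 (1.86), and with 5 FPKM added in place of 1 (1.06). Under salt neither gene was called between accessions, with values of 0.66 to 1.49 for cytochrome P450 93G1 and -1.25 to 1.35 for flavanone 3-dioxygenase 3. For cytochrome P450 93G1 the tolerant libraries still lay above the sensitive ones, with no overlap, at 8 h (means of 1.16 and 0.0967 FPKM), 24 h (1.31 and 0.00667 FPKM) and 48 h (2.24 and 0.3 FPKM). With 0.1 FPKM added in place of 1, its difference was called at 8 h (2.66, adjusted p = 0.0475) and 24 h (3.65, adjusted p = 0.00392).

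**Figure D5:**
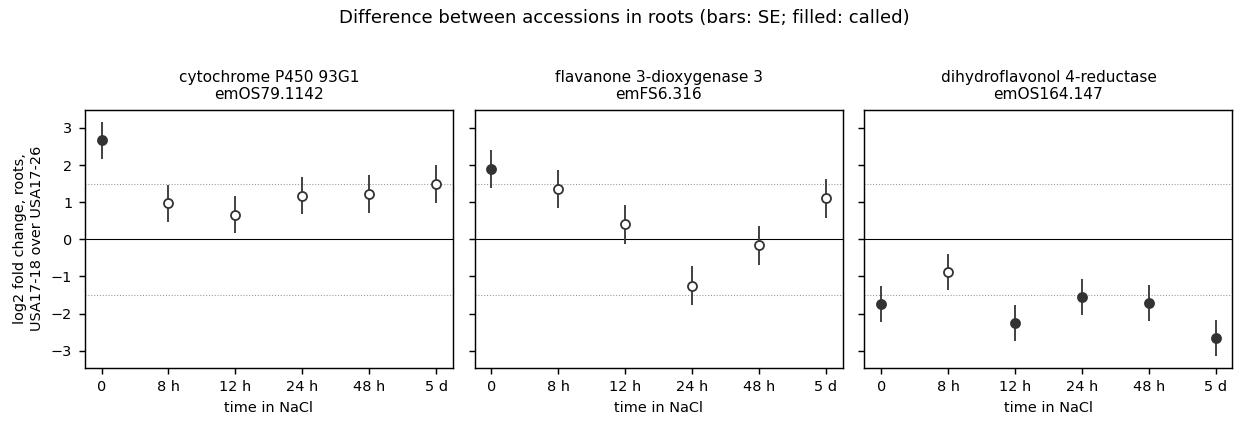
Log2 fold change between accessions in roots (USA17-18 over USA17-26, log2(FPKM + 1) scale) with its SE at each time for the 3 genes with a call; filled symbols were called and dotted lines mark 1.5 in either direction. Cytochrome P450 93G1 and flavanone 3-dioxygenase 3 were called higher in USA17-18 at time 0 (2.67 and 1.89), and dihydroflavonol 4-reductase was called lower at every time but 8 h, by -2.66 at 5 days.

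Whether the salt response itself differed between accessions was tested as the tolerant minus the sensitive log2 fold change. In roots 1 of 30 values was called, flavanone 3-dioxygenase 3 at 24 h, at -3.14 (SE 0.74, adjusted p = 0.0144), and it was -2.97 with an adjusted p of 0.052 without sensitive replicate 1 of 24 h. The background was 1.27%, 0.807%, 2.24%, 0.761% and 0.563% of all tested genes from 8 h to 5 days. In leaves 0 of 25 tested values were called by limma and 0 had an unadjusted p under 0.05, against calls for 4.08%, 1.72%, 0.315%, 0.0843% and 0.0621% of all genes. The difference for cytochrome P450 93G1 in roots was -1.7 at 8 h (SE 0.71, adjusted p = 0.223) and -2.01 at 12 h (adjusted p = 0.203), so its called fall in tolerant roots at 12 h and 5 days and the uncalled one in sensitive roots were not shown to differ in this fit. Adding 5 FPKM in place of 1 made the difference a call at 8 h (-1.59), 12 h (-1.54) and 24 h (-1.54), and library weights made it one at 12 h (-1.67, adjusted p = 0.00229), 48 h (-1.55, adjusted p = 0.0324) and 5 days (-1.77, adjusted p = 0.00327). Flavanone 3-dioxygenase 2 at 8 h in leaves, called in the tolerant accession only, differed by 1.44 (SE 0.81, adjusted p = 0.27), and by 2.16 (adjusted p = 0.0132) without the 9 libraries that stand apart.

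Set in order by mean level, most neighbouring conditions overlapped. Of the 11 neighbouring pairs within a tissue, 9 to 11 overlapped for every gene. In roots, time 0 separated from salt for flavanone 3-dioxygenase 2 and the flavonoid 3'-monooxygenase, and for the monooxygenase the 2 accessions at time 0 also separated from each other. For cytochrome P450 93G1 tolerant roots at time 0 stood above all other conditions and sensitive roots at 24 h below them. For flavonol synthase sensitive roots at 5 days, at 20.03 FPKM or more, separated from the next lower condition, tolerant roots at 24 h. Tolerant roots at 5 days, at 13.47 FPKM or more, overlapped that condition, which reached 16.17 FPKM. Sensitive roots at time 0 lay lowest. For dihydroflavonol 4-reductase tolerant roots at 24 h separated from the next lower condition, sensitive roots at time 0, and tolerant roots at time 0 lay lowest. The ratio of the highest to the lowest condition mean in leaves was 22.4 for flavanone 3-dioxygenase 2, 22.4 for flavonol synthase, 44 for dihydroflavonol 4-reductase and 13.1 for flavanone 3-dioxygenase 3. Replicates were least alike for flavonol synthase, whose SD had a median of 62.3% of the mean over leaf conditions and 78% over root conditions with a mean of 1 FPKM or more.

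The members did not share 1 pattern. Over the 24 condition means of log2(FPKM + 1), Pearson's r between 2 members ran from -0.611 (cytochrome P450 93G1 and dihydroflavonol 4-reductase) to 0.361 (flavanone 3-dioxygenase 2 and dihydroflavonol 4-reductase). Among 23933 genes, the closest to flavonol synthase were the transporter DETOXIFICATION 34 (emOS173.42, r = 0.96), cytosolic sulfotransferase 17 (emFS15.33, 0.958) and mavicyanin (emOS91.1424, 0.951). The closest to cytochrome P450 93G1 were wall-associated receptor kinase 2 (emFS17.92, 0.957), expansin-B5 (emFS22.240, 0.956) and the unnamed emFS21.304 (0.954). The closest to flavanone 3-dioxygenase 2 were the unnamed emOS99.480 (0.931) and emFS22.584 (0.914) and the homeobox gene HOX6 (emOS91.705, 0.91). Dihydroflavonol 4-reductase was closest to the RING finger gene RIE1 (emOS174.85, 0.899), the flavonoid 3'-monooxygenase to AUGMIN subunit 8 (emOS91.24, 0.82) and flavanone 3-dioxygenase 3 to the unnamed emFS1.633 (0.82). These are descriptions over conditions that share tissue, time and control libraries.

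Likeness was also read within the pathway for every member, and was highest for the leaf-high flavonol synthase and the root-high cytochrome P450 93G1. For the other members the closest pathway gene had a lower r. It was 0.65 for emOS164.147, 0.613 for emFS27.473, 0.546 for emOS124.135 and 0.367 for emFS6.316. Close genes are named here only for flavonol synthase and cytochrome P450 93G1. Of 64 other pathway genes at 1 FPKM or more in at least 3 libraries, flavonol synthase was closest to emOS140.34 (r = 0.949), to flavonoid 3'-monooxygenase CYP75B3 (emFS24.491, 0.939) and to a chalcone isomerase (emOS35.45, 0.913). Cytochrome P450 93G1 was closest to the flavonoid 3'-monooxygenases emOS181.512 (0.854) and emOS181.510 (0.849) and to chalcone synthase 1 (emOS89.90, 0.785). The last of these averaged 82.6 ± 41 FPKM in tolerant roots and 0.413 ± 0.621 FPKM in tolerant leaves at time 0 (log2 fold change 5.84, SE 0.78), and fell in tolerant roots at 8 h (-3.2), 24 h (-2.5) and 48 h (-2.74). emFS24.491 and emOS140.34 were leaf genes: in sensitive plants at time 0 emFS24.491 averaged 0.0167 ± 0.0153 FPKM in roots and 61.8 ± 13 FPKM in leaves, and emOS140.34 was listed at 0 in all 3 root libraries and averaged 174 ± 44.7 FPKM in leaves. The sets were named after their values were seen.

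The other pathway genes moved in both directions under salt. The names of 73 further genes place them in the pathway, from phenylalanine ammonia-lyase to glycosyltransferases and regulators, and 60 of them were tested in leaves and 55 in roots. In tolerant leaves from 8 h to 5 days, 2, 2, 5, 9 and 5 were called higher and 10, 13, 8, 7 and 5 lower, with median log2 fold changes of -0.33, -0.42, -0.13, 0.24 and -0.02, where the medians of all tested genes were 0.194, 0.13, -0.182, 0.1 and 0.048. In sensitive leaves 0, 5, 7, 9 and 7 were called higher and 1, 3, 16, 5 and 3 lower, with medians of -0.18, -0.14, -0.42, -0.13 and -0.1, where those of all genes were -0.03, -0.042, -0.567, -0.285 and -0.146. The shares of all tested genes called in either direction lay between 9.33% and 13.9% in tolerant and between 1.65% and 22.7% in sensitive leaves.

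In roots the list also moved in both directions. In tolerant roots 3, 4, 5, 2 and 8 of 55 genes were called higher and 10, 7, 6, 6 and 3 lower from 8 h to 5 days, and in sensitive roots 3, 8, 0, 2 and 12 were called higher and 6, 5, 9, 3 and 5 lower. Of all tested genes 12.7%, 10.7%, 9.1%, 9.74% and 5.56% were called in either direction in tolerant and 12.9%, 11.4%, 11.9%, 9.36% and 12.6% in sensitive roots. The median log2 fold change at 5 days was 0.32 in tolerant and 0.64 in sensitive roots, where those of all tested genes were 0.027 and 0.035. Chalcone synthase C2 (emFS15.122), the first enzyme of the pathway proper, was among the 12, at 50.2 ± 29 FPKM in sensitive roots at 5 days, against 3.54 ± 0.981 FPKM at time 0 (log2 fold change 3.34). Its rise came at the same time as that of flavonol synthase, in the root libraries with raised leaf marker sums given above, and the part of those markers in it was not tested.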

How the data were processed

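RNA-seq of 72 libraries was analysed, with 24 conditions of 3 biological replicates. The deposited table holds FPKM values per gene, which the authors made from reads trimmed with Trimmomatic 0.32 and aligned with HISAT2 2.1.0 per the labels, and which the study's methods call RPKM. The counting tool, strand setting and genome build are not named in those sources. The authors' differential test on counts was not repeated, since no counts were analysed here. The columns of all samples were matched by name, with 0 left unassigned, and 0 pairs of libraries were identical.

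FPKM sums per library ranged from 671959 to 774486. Relative depth, which limits precision at low levels, came from whole-read steps of 45 low genes. A gene entered a fit if at least 3 of its libraries reached 1 FPKM (22551 in leaves, 22194 in roots, 23297 in the fit of both tissues at 0 and 5 days, 23933 in that of all 72 libraries), and log2(FPKM + 1) was fitted with limma 3.58.1 (R 4.3.3; Python 3.11.15, pandas 2.3.3, numpy 2.4.6 and matplotlib 3.10.9 for the rest) with moderated variance, all groups of a tissue together, and Benjamini-Hochberg adjustment over all tested genes. The thresholds of a call were 0.05 for the adjusted p and 1.5 for the size of the log2 fold change. The code was tested on simulated data. SDs are between the 3 libraries, each from pooled plants. The p-values set a difference against the moderated spread between replicate libraries, estimated over all groups of the fit.

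The 6 genes and all gene lists were chosen with earlier results of these data known. Other pathway genes were named by a rule (those called in any comparison, up to 3 per list by the size of the log2 fold change), as were the 3 genes most like each member, and any other gene was named after its values were seen. Alternatives were pseudocounts of 0.1 and 5 FPKM, no filter, median-ratio scaling, a log2 fold of 1, library weights, a replicate block and leaving out each library. Leaving out the 9 libraries that stand apart, and the test of root against leaf response, were added after seeing the data.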

Additional observations from a re-analysis of the deposited data

Results flagged for a closer look

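The salt response of flavanone 3-dioxygenase 3 (emFS6.316) at 24 h in roots differed between accessions, by -3.14 (tolerant minus sensitive log2 fold change), in a test of the difference itself.

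The salt response of roots minus that of leaves, tested in 1 fit of all 72 libraries, differed for each member at some time. For the flavonoid 3'-monooxygenase (emFS27.473) it was -2.07, -2.64, -2.92, -3.99 and -3.04 in the tolerant accession and -2.49, -3.04, -4.31, -3.18 and -3.93 in the sensitive accession, at 8 h, 12 h, 24 h, 48 h and 5 days. For cytochrome P450 93G1 (emOS79.1142) it was -3.42, -2.89, -3.33, -2.92 and -2.1 in the tolerant accession over the same times, and -1.68 at 8 h and -1.72 at 24 h in the sensitive accession. Its leaf levels were at most 0.32 FPKM, so these values are close to its root changes.

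For flavanone 3-dioxygenase 3 (emFS6.316) the difference was -2.86, -4.13, -2.57 and -1.79 at 8, 12, 24 and 48 h in the tolerant accession and -2.12 at 12 h in the sensitive accession. Dihydroflavonol 4-reductase (emOS164.147) differed by -2.46 at 8 h and -3.25 at 12 h in the tolerant accession, where it rose in leaves. Flavanone 3-dioxygenase 2 (emOS124.135) differed by -1.96 at 12 h in the tolerant accession, having risen in both tissues. Flavonol synthase (emOS36.460) differed by 3.95 at 12 h in the tolerant and 3.65 at 24 h in the sensitive accession. The fit of root minus leaf response was not repeated without single libraries.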

How the results depend on the processing

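No member value changed sign while called under any alternative. Of 1860 member values refitted without a single library, 1779 kept their side of the threshold, 62 calls were lost and 19 gained. Adding 5 FPKM in place of 1 left 11 calls of salt against time 0 in tolerant roots and 6 in sensitive roots, 2 calls between accessions in roots, 4 calls for the difference in salt response in roots, and 4 calls of root against leaf in the tolerant and 2 in the sensitive accession. Adding 0.1 FPKM, or a log2 fold of 1, gave 1 call between accessions in leaves each. Library weights gave 13 salt calls among 25 tested values in sensitive leaves and 5 calls among 30 between accessions in leaves. For the difference in salt response they gave 8 calls among 25 values in leaves and 8 among 30 in roots. Without the 9 libraries that stand apart there was 1 call between accessions in leaves and there were 3 for the difference in salt response in leaves. Leaving out each library in turn gave 0 to 1 and 5 to 8 calls between accessions in leaves and roots, 0 to 0 and 0 to 1 for the difference in salt response in leaves and roots, and 6 to 9 (tolerant) and 4 to 8 (sensitive) for root against leaf, the 4 being without sensitive leaf replicate 3 at 5 days. The 1 call between accessions in leaves came without tolerant replicate 1 or sensitive replicate 2 at 12 h (flavonol synthase, -5.06 and -3.98). The share of all tested genes called was not computed under any alternative, so whether these counts moved with calls over all genes cannot be told. The cause of these changes was not tested.

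Within a tissue and accession, same-numbered libraries of different times did not deviate together in the median (correlation of deviations -0.132 to 0.018). Single correlations ran from -0.559 to 0.704. Leaf and root libraries of the same number were not compared, so pairing between tissues was not tested. With the replicate block there were 1 call between accessions in leaves and 4 in roots.

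Limits were set by the 3 libraries of each condition, by the lack of non-stressed libraries after time 0 and by FPKM without counts, in which members near 0 have no usable fold change. No fit of the added root against leaf response was repeated under other settings.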

Other observations

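Pathway genes outside the 6 members also changed strongly under salt in leaves. The flavonoid 3'-monooxygenase emFS27.515 averaged 40.4 ± 12.9 FPKM in tolerant leaves at 12 h, against 0.0767 ± 0.0929 FPKM at time 0 (log2 fold change 5.21, SE 0.96). A phenylalanine/tyrosine ammonia-lyase (emFS22.481), the entry enzyme to phenylpropanoids, averaged 647 ± 117 FPKM in tolerant leaves at 48 h, against 50.2 ± 84.2 FPKM at time 0 (6.01, SE 1.84). The ratio of these means was only 12.9, and the SD at time 0 exceeded the mean, so the size of this change is uncertain. A probable 2-oxoglutarate-dependent dioxygenase ANS (emFS4.1750), named for anthocyanidin synthase, fell to 1.57 ± 0.739 FPKM in tolerant leaves at 48 h, against 130 ± 42.5 FPKM at time 0 (-5.66, SE 0.26). A leucoanthocyanidin reductase (emOS55.512), an enzyme of condensed tannin synthesis, fell to 0.16 ± 0.0693 FPKM in tolerant leaves at 8 h, against 9.66 ± 3.46 FPKM at time 0 (-3.15, SE 0.46).

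The flavanone 3-dioxygenase 2 genes emOS100.155 and emOS100.156 rose in sensitive leaves at 24 h, to 31.7 ± 16.7 and 41.6 ± 23.2 FPKM, against 0.983 ± 0.873 and 0.913 ± 0.708 FPKM at time 0, where the member of that name was also called higher. The cytochrome P450 93G1 gene emOS146.9 was higher in tolerant than in sensitive roots at 24 h, at 38.2 ± 19.1 against 5.33 ± 2.54 FPKM (2.58, SE 0.37), whereas the member of that name was called only at time 0. The anthocyanin regulatory C1 gene emOS49.494 was higher in tolerant than in sensitive roots at 5 days, at 5.14 ± 2.76 against 0.223 ± 0.117 FPKM (2.24, SE 0.32), when dihydroflavonol 4-reductase was lower there.

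In tolerant roots at 5 days, replicate 3 held the highest value of its condition for several genes of the pathway. It had 143.18 FPKM of flavonol synthase, 13.64 FPKM of cytochrome P450 93G1, 12.71 FPKM of flavanone 3-dioxygenase 3 and 172.79 FPKM of chalcone synthase 1 (emOS89.90). The other 2 libraries had at most 16.38, 2.78, 5.96 and 21.18 FPKM. Replicate 3 was also highest for dihydroflavonol 4-reductase (2.77 FPKM) and the flavonoid 3'-monooxygenase (0.26 FPKM). For flavanone 3-dioxygenase 2 replicate 1 was highest, at 378.36 FPKM. This was noticed after the values were seen.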
